A study of Homo sapiens with 96 samples.

Results

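Long cassette exons are skipped exons (SE) of more than 300 nt, and they were taken from the SE rows of 8 tables of splicing events made with rMATS. An SE event is an exon that is either kept or left out between the same 2 neighbouring exons. In all, 4713 long exons were found among 94227 SE exons, which is 5% of them, in 3521 genes. They gave 7147 events, since 1 exon can be listed with several neighbours, and 3194 long exons had 1 event each. Lengths ran from 301 to 10893 nt with a median of 494 nt (quartiles 365 and 807), and 860 exons were over 1000 nt. Some of them overlap each other, so that the 4713 exons cover 4349 separate intervals. The coordinates are those of hg19, and 98.8% of the long exons are an internal exon of at least 1 transcript in GENCODE for that build.

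Most human internal exons are short, and the splicing machinery is thought to recognise them by pairing the 3′ splice site before the exon with the 5′ splice site after it. Across a long exon this pairing is harder, and long internal exons depend on strong splice sites, on enhancer sequences bound by SR proteins, or on short flanking introns. Many SR proteins and other splicing factors carry methylated arginines. Protein arginine methyltransferases (PRMTs) place these marks: Type I PRMTs form asymmetric dimethylarginine, and PRMT5, the main Type II enzyme, forms symmetric dimethylarginine.

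RNA was selected for poly(A) tails and sequenced from A549, a cell line derived from a lung adenocarcinoma, after treatment with DMSO (0.01%), with the PRMT5 inhibitor GSK591 (1 µM), with the Type I PRMT inhibitor MS023 (1 µM), or with both inhibitors (co-treatment, 1 µM each). The 10 groups of 3 libraries are DMSO at 4 and 7 days, GSK591 at 2, 4, and 7 days, MS023 at 2, 4, and 7 days, and co-treatment at 2 and 4 days. These are 30 of the 96 samples of the series. All cells are of 1 line, and the 2-day and 4-day inhibitor groups share the 3 DMSO libraries of 4 days, so the 2-day comparisons set cells of different days side by side. The control of the 7-day tables was taken to be DMSO at 7 days from the labels. Nothing states that the libraries of a group came from separate cultures, so the spread between libraries may be technical. The p-values given for calls rest on 1 level of spread shared by nearly all events of a comparison. For all but 18 to 776 SE events per comparison, the spread of the exon's own libraries did not enter. In bulk RNA, a change in a fraction of the cells and a change in every cell cannot be told apart.

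Events of long exons held 3572586 to 6331688 reads in each library, where a read can count in several events. Letters a, b, and c stand for the position of a library within its group in the tables. Library a of GSK591 at 2 days stood apart in read counts. Spearman's rho of its inclusion reads over long exons with those of the other libraries of its group was 0.948, against 0.985 to 0.997 for the other 29 libraries. It held 223 inclusion reads of the MKI67 exon, against 2325 and 2162 in libraries b and c. Counts for GSK591 at 2 days are therefore also given without it. Of the calls of named exons at 2 days against DMSO, those of SRSF3 and EHMT2 were lost without it and the others were kept.

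For 15 long exons on which the results below turn, the splice sites are shown, as read from the GRCh37 sequence of the hg19 build, 5′ to 3′ on the gene's strand. They were picked from the exons described below after their values were seen, and they include the exons of 2 SR protein genes. The 3′ splice site is given with 20 intron bases in lower case and the first 3 exon bases in capitals, and the sets are ordered from exons that fell with MS023, through exons that rose with MS023, to exons that moved with GSK591.
MKI67: tttcataattcattgccaagATG
EPB41L1: ttgattttatctggccatagAGA
ACSF3: tgtgccttgcctttctccagCTC
ANKS6: attctccatcttcctggcagATT
GAS2L1: cgcttactgggtccccacagCGA
KIAA0430: tctttcctctgtattagcagTGC
ERCC8: ctgttactctctcttctcagATC
LRIF1: ttactcaatgttcttttaagTGT
SGOL1: tttattttttaaattctcagATC
NASP: catgttctttaaccatgtagAGG
RTN4: ctttctgtccatggtcacagAAA
HMGN1: aactatgttttctttaacagAAA
KDM4C: actcattgtttttctttcagATT
SRSF3: aaaaatgaaccccgttacagAGT
SRSF7: acctggtcaaaacctttcagGTT

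A run of pyrimidines before the AG is the usual sign of a strong 3′ splice site. Of the 17 bases that precede the last 3 intron bases, 15 were pyrimidines in ERCC8, against 7 in SRSF3 and 10 in SRSF7. MKI67 had 12, EPB41L1 and GAS2L1 had 11 each, ANKS6 and KIAA0430 had 13 each, and ACSF3 had 14. The sites of MKI67 and LRIF1 end in aag and not in cag or tag.

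The 5′ splice sites of the same exons follow, with the last 3 exon bases in capitals and the first 6 intron bases in lower case. All 15 begin the intron with gt.
MKI67: TTAgtaagt
EPB41L1: GAGgtacag
ACSF3: GTGgtgagt
ANKS6: CAGgtcagg
GAS2L1: CTGgtgagt
KIAA0430: CAGgtaatt
ERCC8: AGAgtaaga
LRIF1: AAGgtaatt
SGOL1: CCAgtaagt
NASP: AAGgtaacc
RTN4: CAGgtaatc
HMGN1: CAGgtgatt
KDM4C: CAGgtatta
SRSF3: CTAgtaagt
SRSF7: AAGgtttat

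The inclusion level Ψ is the share of transcripts that keep the exon, from 0 to 1. It was computed from the reads for inclusion and for skipping, each divided by the length over which such reads can fall, and ΔΨ is the mean Ψ with inhibitor minus that with DMSO. Inclusion reads take in reads that lie inside the exon, so that for an exon that overlaps the first or last exon of another transcript they hold reads of that transcript too. This was so for 58.1% of the long exons, against 40.2% of the shorter SE exons. Of the long exons, 46.9% were fully coding, 42.9% partly coding, and 10.2% held no coding base, against 80.3%, 8.38%, and 11.3% of shorter exons. A length divisible by 3, which keeps the reading frame, was seen in 36.9% of long and 40.1% of shorter exons. The median GC content was 54.3% and 49.6%, respectively. An annotated intron lay inside 23.6% of the long exons, so that a part of them are retained introns joined to exons.

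An exon was tested where each of the 6 libraries of a comparison had at least 10 reads. It was called at an adjusted p under 0.05 in a quasi-binomial model that was fitted over all SE events with such counts. Benjamini-Hochberg adjustment took in all these events, several of which can belong to 1 exon. Of the 4713 long exons, 4300 were tested in at least 1 of the 8 comparisons with DMSO, 413 in none, and 1725 in all 8. In total 595 long exons of 544 genes, in 558 separate intervals, were called at least once. Of these, 224 were called in 1 comparison, 103 in 2, 88 in 3, 61 in 4, 70 in 5, 34 in 6, 10 in 7, and 5 in all 8. The 5 were PLEC, DAXX, TMEM147, NASP, and NDUFV1. There were 51 exons that rose in 1 comparison and fell in another. These counts over comparisons were not made for all SE exons, so they cannot be read as particular to long exons.

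Among the long exons called with MS023, most were lower. At 2 days 126 of 2827 tested long exons (4.46%) were called, 31 higher and 95 lower, where 1.88% of all SE exons were called, 0.506% higher and 1.38% lower. At 4 days 140 of 2841 (4.93%) were called, 42 higher and 98 lower, against 2.32% of all SE exons, 0.779% higher and 1.55% lower. At 7 days 145 of 2637 (5.5%) were called, 46 higher and 99 lower, against 2.96% of all SE exons, 1.5% higher and 1.46% lower. Among called long exons that fell with MS023 the median ΔΨ was −0.133, −0.101, and −0.139 at the 3 times. The share of exons that fell was higher in the longer length classes. At 4 days it was 1.05% for exons of up to 100 nt, 1.58% for 101 to 200 nt, 2.32% for 201 to 300 nt, 3.28% for 301 to 500 nt, 3.29% for 501 to 1000 nt, and 4.18% above 1000 nt. Where events had at least 10 skipping reads in the 6 libraries, these shares were 1.98%, 3.37%, 4.92%, 6.75%, 7.37%, and 10.5%. Where exons that overlap a first or last exon were left out, they were 0.715%, 1.28%, 1.73%, 3%, 2.31%, and 3.98%. Above 100 nt, the share of exons that rose at 4 days was also higher in the longer classes. In the same 6 classes it was 1.15%, 0.484%, 0.522%, 0.888%, 1.88%, and 2.47%. With at least 10 skipping reads it was 2.17%, 1.03%, 1.11%, 1.83%, 4.21%, and 6.22%. Without exons that overlap a first or last exon it was 1.07%, 0.389%, 0.537%, 1.26%, 2.02%, and 0.498%. The difference between length classes was not tested. Reads inside an exon count for inclusion, so longer exons can gather more reads, and the classes were not matched for read count. Whether read count changed these shares was not tested.

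**Figure D1:**
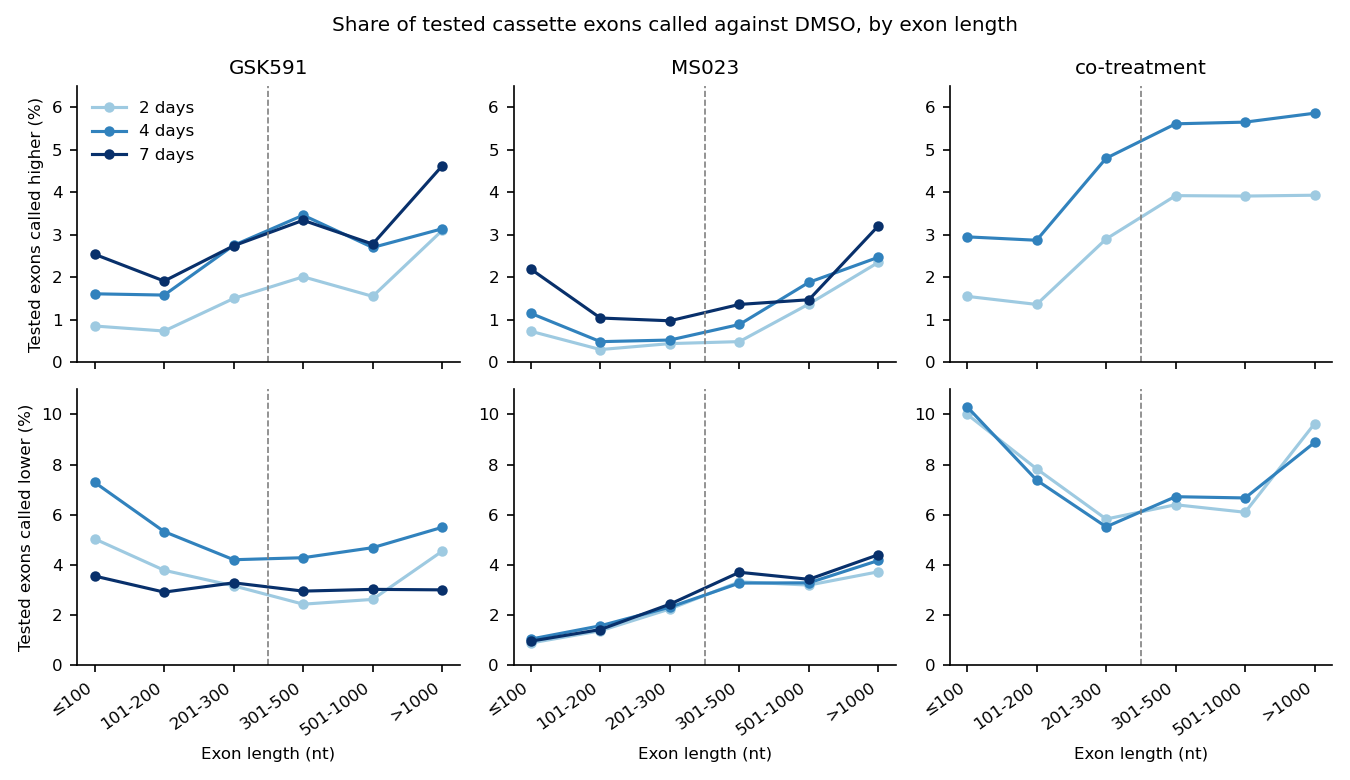
Share of tested SE exons (%, y axis) called higher (top) or lower (bottom) against DMSO in 6 classes of exon length (x axis, nt), for GSK591, MS023, and co-treatment, with 1 line per day. The dashed line marks the limit of 300 nt. With MS023 at 4 days the share that fell went from 1.05% in the shortest class to 4.18% in the longest, and the share that rose from 1.15% to 2.47%.

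With GSK591, long exons were called about as often as all SE exons, but a larger part of the calls were rises, a difference that was not tested. At 2 days 134 of 2714 long exons (4.94%) were called, 56 higher and 78 lower, where 5.05% of all SE exons were called, 0.907% higher and 4.14% lower. Without library a, 109 were called, 52 higher and 57 lower, against 4% of all SE exons. At 4 days 219 of 2807 (7.8%) were called, 89 higher and 130 lower, against 7.68% of all SE exons, 1.77% higher and 5.91% lower. At 7 days 167 of 2605 (6.41%) were called, 89 higher and 78 lower, against 5.48% of all SE exons, 2.29% higher and 3.19% lower. Rises made up 41.8%, 40.6%, and 53.3% of the calls among long exons at 2, 4, and 7 days, and 16.8%, 22.1%, and 41% among shorter exons. Long exons that rose with GSK591 started low, with a median Ψ in DMSO of 0.0725, 0.0853, and 0.14, and those that fell started high, at 0.916, 0.942, and 0.917. Shorter exons showed the same order, with 0.168, 0.257, and 0.411 for those that rose and 0.933, 0.944, and 0.921 for those that fell. The same DMSO libraries enter ΔΨ, and Ψ is bounded by 0 and 1, so this order is in part set by the choice of exons.

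Co-treatment gave the most calls. At 2 days 306 of 2832 long exons (10.8%) were called, 111 higher and 195 lower, where 10.1% of all SE exons were called, 1.69% higher and 8.42% lower. At 4 days 365 of 2858 (12.8%) were called, 162 higher and 203 lower, against 11.5% of all SE exons, 3.2% higher and 8.27% lower. Changes beyond 0.3 in Ψ were seen in 38 called long exons at 2 days and 43 at 4 days, against 12 and 20 with GSK591 and 12 and 14 with MS023, which share the same DMSO libraries. Such large changes were not counted over all SE exons, which were also called most often with co-treatment.

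The number of calls depended on the test. The log2 odds of inclusion were also tested with limma, which weighs each library alike and takes in the spread of each exon's own libraries. The main model used 1 shared level of spread for nearly all events. Which of these differences changed the number of calls was not tested. With GSK591, limma called 0 long exons at 2 days (293 at an unadjusted p under 0.05), 30 at 4 days, and 5 at 7 days. With MS023, limma called 1, 2, and 0 (352, 358, and 376 at an unadjusted p under 0.05), and with co-treatment 120 and 145. The medians of ΔΨ over all tested long exons were near 0 in each comparison, from −0.00252 with MS023 at 2 days to 9.06e-05 with GSK591 at 7 days. The median Ψ of long exons in DMSO was 0.986 to 0.99. With MS023, 59.4%, 59.1%, and 56.9% of long exons had a ΔΨ below 0 at 2, 4, and 7 days, against 56%, 53.9%, and 50.8% of all SE exons.

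Exons just inside and just outside the limit of 300 nt are given here without a test. With MS023 at 4 days, 2.99% of the 1269 tested exons of 251 to 300 nt fell and 0.552% rose, and of the 581 exons of 301 to 350 nt 3.1% fell and 1.72% rose. With GSK591 at 4 days, 4.79% of exons of 251 to 300 nt fell and 3.45% rose, and 4.28% and 3.6% of those of 301 to 350 nt.

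PLEC, MKI67, and EPB41L1 each held an exon that fell with MS023 at all 3 times. PLEC encodes plectin, a very large protein that links cytoskeletal filaments, and its long exon of 3381 nt (chr8:144996672-145000052, minus strand) codes for the rod domain. The exon is fully coding, is flanked by introns of 899 and 108 nt, and had the highest GC content of those named, 71%. In DMSO at 4 days its Ψ was 0.711, 0.706, and 0.71 in libraries a, b, and c, from 22984, 21884, and 21124 inclusion reads and 394, 384, and 365 skipping reads. With MS023 it was 0.294, 0.305, and 0.276 at 2 days, and 0.22, 0.206, and 0.195 at 4 days. Inclusion reads at 4 days were 5091, 4462, and 4147, and skipping reads 764, 725, and 723, so that inclusion reads were fewer and skipping reads more than in every DMSO library. ΔΨ was −0.42 (SE 0.0085), −0.50 (SE 0.0073), and −0.50 (SE 0.018) at 2, 4, and 7 days. With GSK591 the same exon fell less, by −0.089 (SE 0.023), −0.17 (SE 0.01), and −0.22 (SE 0.025). In the direct comparison Ψ was higher with GSK591 than with MS023 by 0.33, 0.33, and 0.28 (adjusted p = 2.9e-78 at 7 days). With co-treatment Ψ was 0.371, 0.361, and 0.393 at 2 days and 0.383, 0.365, and 0.356 at 4 days, between the levels of the single inhibitors.

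MKI67 encodes Ki-67, a protein of the surface of mitotic chromosomes that marks dividing cells. Its cassette exon of 1080 nt (chr10:129913192-129914271, minus strand) is fully coding, and keeping it gives the long form of the protein. Annotated last exons hold 498 of the exon's bases. Ψ was 0.801, 0.765, and 0.807 in DMSO at 4 days and 0.862, 0.802, and 0.778 in DMSO at 7 days. With MS023 it was 0.516, 0.531, and 0.531 at 2 days, 0.529, 0.503, and 0.455 at 4 days, and 0.309, 0.406, and 0.451 at 7 days. Every MS023 library lay below every DMSO library, and ΔΨ was −0.26 (SE 0.014, adjusted p = 7.0e-20), −0.30 (SE 0.025, adjusted p = 6.5e-26), and −0.43 (SE 0.049, adjusted p = 1.4e-21). With GSK591 the exon rose at 2 days, from Ψ of 0.791 to 0.882 (ΔΨ 0.091, SE 0.024, adjusted p = 0.0019). That call was lost without GSK591 library b (adjusted p = 0.12). At 4 and 7 days the values with GSK591 were above DMSO by 0.087 and 0.14 and did not pass (adjusted p = 0.059 and 0.05). Set directly against MS023, Ψ was higher with GSK591 by 0.36 (SE 0.021), 0.38 (SE 0.034), and 0.57 (SE 0.042) at 2, 4, and 7 days, with no overlap of libraries at any time. Co-treatment did not pass in either direction, with ΔΨ of 0.017 and 0.089.

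EPB41L1 encodes protein 4.1N, which ties membrane proteins to the actin cytoskeleton. Its exon of 411 nt (chr20:34797410-34797820, plus strand) is fully coding, keeps the frame, and overlaps no first or last exon. Ψ was 0.618, 0.599, and 0.611 in DMSO at 4 days. It was 0.251, 0.234, and 0.24 with MS023 at 4 days and 0.2, 0.196, and 0.235 with co-treatment at 4 days. Both groups lay far below DMSO, with ΔΨ of −0.37 (SE 0.0076, adjusted p = 1.1e-63) and −0.40 (SE 0.014, adjusted p = 3.2e-79). With GSK591 at 4 days Ψ was 0.625, 0.611, and 0.656, which overlapped DMSO. The DMSO level itself was lower at 7 days, at 0.375, 0.353, and 0.382. Against that control MS023 fell by −0.20 and GSK591 rose by 0.14 (SE 0.025, adjusted p = 3.2e-10).

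**Figure D2:**
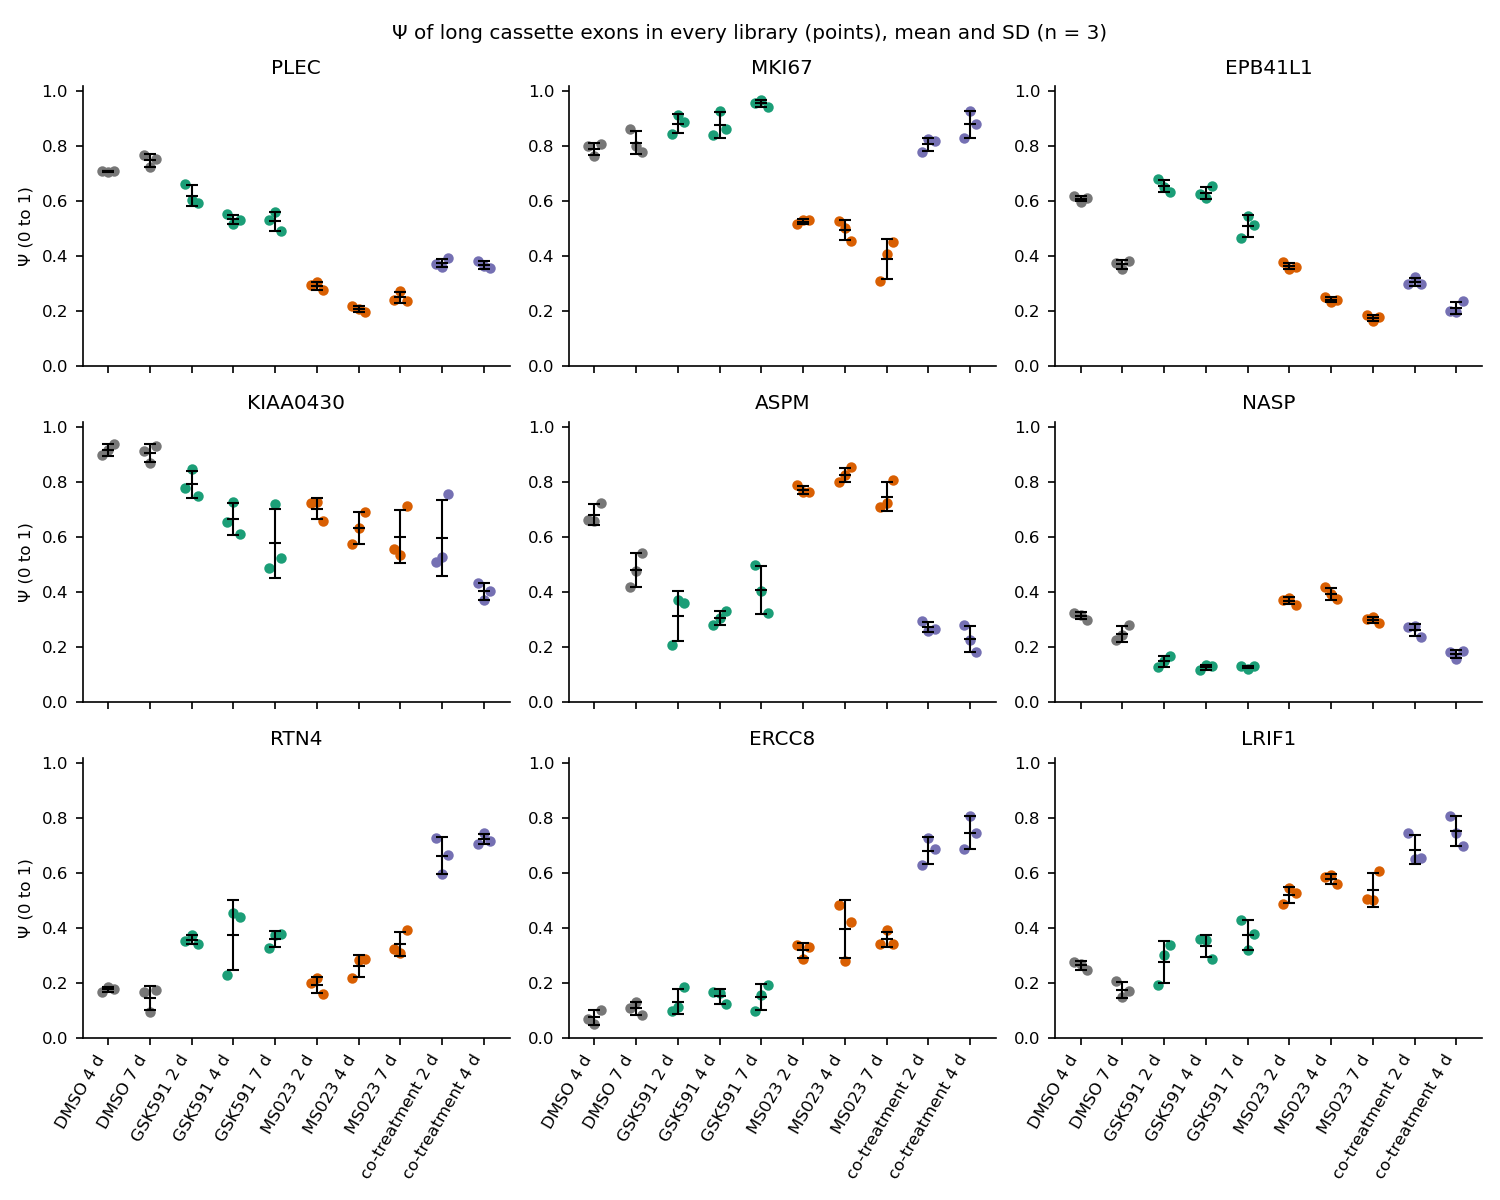
Ψ (y axis, 0 to 1) of 9 long exons in each of the 30 libraries (points), by group (x axis), with the mean and SD of 3 libraries as black bars. The PLEC, MKI67, and EPB41L1 exons sit lowest with MS023 or co-treatment, the ASPM and NASP exons lowest with GSK591 or co-treatment, and the RTN4, ERCC8, and LRIF1 exons highest with co-treatment.

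ACSF3, ANKS6, GAS2L1, and KIAA0430 gave further large falls. ACSF3 is a mitochondrial enzyme that activates malonate, and its exon of 686 nt (chr16:89167070-89167755, plus strand) has 666 coding bases. Its Ψ fell from 0.833, 0.865, and 0.785 in DMSO at 4 days to 0.512, 0.391, and 0.399 with MS023 (ΔΨ −0.39, SE 0.045, adjusted p = 7.4e-09), while GSK591 gave 0.856, 0.799, and 0.832. All bases of the ACSF3 and GAS2L1 exons also lie in annotated first exons, and all those of the ANKS6 exon in annotated last exons. ANKS6, a protein of cilia, has an exon of 503 nt (chr9:101552386-101552888, minus strand) that went from 0.836, 0.91, and 0.826 to 0.49, 0.48, and 0.45 with MS023 at 4 days (ΔΨ −0.38, SE 0.029, adjusted p = 1.0e-16). With co-treatment the ANKS6 exon was lower at 2 days (ΔΨ −0.23, adjusted p = 4.7e-07) and overlapped DMSO at 4 days, with 0.763, 0.921, and 0.808. GAS2L1 crosslinks actin and microtubules, and its exon of 680 nt (chr22:29704049-29704728, plus strand) had Ψ of 0.967, 0.96, and 0.939 in DMSO at 4 days, 0.675, 0.677, and 0.651 with MS023 at 2 days, and 0.442, 0.478, and 0.409 with co-treatment at 2 days. The co-treatment libraries lay below those of both single inhibitors, and ΔΨ against GSK591 at 2 days was −0.38 (SE 0.026, adjusted p = 6.8e-14). KIAA0430, also known as MARF1, encodes an RNA-binding protein needed in oocytes. Its exon of 426 nt (chr16:15719229-15719654, minus strand) is fully coding and fell in 7 comparisons, from 0.898, 0.918, and 0.941 in DMSO at 4 days to 0.432, 0.371, and 0.403 with co-treatment (ΔΨ −0.52, SE 0.022, adjusted p = 1.6e-18). Its fall with MS023 at 2 days (ΔΨ −0.22, adjusted p = 0.006) was lost without DMSO library c (adjusted p = 0.077) or MS023 library c (adjusted p = 0.064).

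DAXX and TMEM147 fell in all 8 comparisons. DAXX is a chaperone of histone H3.3, and its exon of 832 nt (chr6:33288513-33289344, minus strand) is fully coding, with a length that does not keep the frame. Annotated last exons hold 182 of the exon's bases. Ψ was 0.946, 0.935, and 0.943 in DMSO at 4 days, 0.813, 0.795, and 0.756 with GSK591, and 0.726, 0.774, and 0.819 with MS023. The groups of both inhibitors lay below DMSO and overlapped each other. At 7 days DMSO was lower and more spread, at 0.721, 0.772, and 0.875, and the fall with GSK591 (ΔΨ −0.15, adjusted p = 0.001) was lost without DMSO library c (adjusted p = 0.16). TMEM147 is a protein of the endoplasmic reticulum membrane. Its exon of 358 nt (chr19:36037574-36037931, plus strand) holds an annotated intron and is flanked by introns of 86 and 89 nt, and it fell by −0.081 (SE 0.0058) with MS023 and by −0.12 (SE 0.0095) with co-treatment at 4 days. All bases of the TMEM147 exon also lie in annotated first exons, and 158 in annotated last exons. Its fall with GSK591 at 2 days (ΔΨ −0.029, adjusted p = 0.035) was lost without DMSO library a (adjusted p = 0.18), DMSO library c (adjusted p = 0.23), or GSK591 library b (adjusted p = 0.4).

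ASPM, NASP, and NDUFV1 moved in opposite directions with the 2 inhibitors. ASPM organises the poles of the mitotic spindle, and its exon of 4755 nt (chr1:197069561-197074315, minus strand) is fully coding, spans 1585 codons, and carries most of the calmodulin-binding IQ repeats. Annotated last exons hold 468 of the exon's bases. Ψ was 0.662, 0.66, and 0.725 in DMSO at 4 days, 0.278, 0.306, and 0.33 with GSK591 at 4 days, and 0.802, 0.826, and 0.854 with MS023 at 4 days. No library of these groups overlapped, with ΔΨ of −0.38 (SE 0.026, adjusted p = 2.1e-28) with GSK591 and 0.15 (SE 0.026, adjusted p = 0.00064) with MS023. Inclusion reads at 4 days fell from 4443, 5936, and 4944 in DMSO to 1371, 1506, and 1782 with GSK591, and skipping reads went from 69, 93, and 57 to 108, 104, and 110. Co-treatment followed GSK591, with Ψ of 0.278, 0.224, and 0.181 at 4 days and a ΔΨ against GSK591 of −0.077 that did not pass (adjusted p = 0.12). At 7 days Ψ in DMSO was 0.418, 0.476, and 0.543, below the DMSO libraries of 4 days, and GSK591 (0.497, 0.403, and 0.323) overlapped it. At 2 days the fall with GSK591 was −0.37, and −0.317 without library a, where Ψ was 0.207 against 0.371 and 0.359 in libraries b and c.

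NASP is a chaperone of histone H1 and H3, and its exon of 1017 nt (chr1:46072993-46074009, plus strand) is fully coding, keeps the frame, and gives the longer form known from testis. Annotated last exons hold 344 of the exon's bases. Ψ was 0.323, 0.317, and 0.299 in DMSO at 4 days, 0.116, 0.134, and 0.129 with GSK591, and 0.417, 0.392, and 0.374 with MS023. ΔΨ was −0.19 (SE 0.0091, adjusted p = 5.2e-47) with GSK591 and 0.081 (SE 0.015, adjusted p = 5.6e-06) with MS023. With co-treatment NASP lay between GSK591 and DMSO at 4 days, at 0.182, 0.156, and 0.184. The rises with MS023 at 2 days (ΔΨ 0.055, adjusted p = 0.0076) and 7 days (ΔΨ 0.05, adjusted p = 0.00039) were each lost in some fits without 1 library. At 2 days these were without DMSO library c (adjusted p = 0.11), MS023 library a (adjusted p = 0.065), or MS023 library b (adjusted p = 0.095), and at 7 days without DMSO library a (adjusted p = 0.1). The fall with co-treatment at 2 days (ΔΨ −0.052, adjusted p = 0.0017) was lost without co-treatment library c (adjusted p = 0.11).

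NDUFV1 encodes a core subunit of respiratory complex I, and its exon of 318 nt (chr11:67374770-67375087, plus strand) lies mostly outside the annotated coding sequence, with 51 coding bases and 198 bases in annotated first exons. It went the other way, from Ψ of 0.0475, 0.0582, and 0.0612 in DMSO at 4 days to 0.202, 0.153, and 0.205 with GSK591 and 0.0226, 0.0311, and 0.026 with MS023. ΔΨ was 0.13 (SE 0.017, adjusted p = 3.2e-38) and −0.029 (SE 0.0048, adjusted p = 9.7e-07). At 7 days the fall with MS023 was −0.012 (adjusted p = 0.024), and it was lost without DMSO library b (adjusted p = 0.15), DMSO library c (adjusted p = 0.089), MS023 library a (adjusted p = 0.064), or MS023 library c (adjusted p = 0.34).

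RTN4, ERCC8, LRIF1, and SGOL1 reached their highest inclusion with co-treatment. RTN4 encodes the reticulon Nogo, and its fully coding exon of 2400 nt (chr2:55252222-55254621, minus strand) is the one that makes Nogo-A, the form that inhibits nerve growth. Ψ was 0.168, 0.186, and 0.177 in DMSO at 4 days, 0.229, 0.456, and 0.441 with GSK591, and 0.217, 0.284, and 0.285 with MS023. With co-treatment at 4 days it was 0.707, 0.746, and 0.718, above every library of DMSO and of the single inhibitors at any time. RTN4 rose with GSK591 by 0.18, 0.20, and 0.22 at 2, 4, and 7 days (adjusted p = 5.9e-05, 4.1e-05, and 7.4e-08). ΔΨ with co-treatment was 0.49 (SE 0.039, adjusted p = 4.3e-20) at 2 days and 0.55 (SE 0.013, adjusted p = 1.7e-26) at 4 days, and against GSK591 at 4 days it was 0.35 (SE 0.074, adjusted p = 1.0e-06). The values with MS023 at 2 and 4 days did not pass (ΔΨ of 0.015 and 0.085), and at 7 days the exon rose with MS023 by 0.20 (SE 0.036, adjusted p = 8.3e-05).

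ERCC8 encodes CSA, a protein of transcription-coupled DNA repair. Its exon of 1607 nt (chr5:60187864-60189470, minus strand) holds no coding base, and all its bases lie in annotated last exons, so that its inclusion reads can come from transcripts that end there. The share of such reads was not tested. At 4 days Ψ was 0.068, 0.0511, and 0.101 in DMSO, 0.168, 0.161, and 0.121 with GSK591, 0.484, 0.279, and 0.423 with MS023, and 0.688, 0.806, and 0.746 with co-treatment. The order DMSO, GSK591, MS023, co-treatment held with no overlap of libraries at 4 days. ΔΨ was 0.076 (SE 0.021), 0.32 (SE 0.063), and 0.67 (SE 0.037) with the 3 treatments (adjusted p = 1.7e-05, 1.9e-34, and 1.1e-81). At 2 days the rise with GSK591 (ΔΨ 0.058, adjusted p = 0.0023) was lost without DMSO library b (adjusted p = 0.26) or GSK591 library c (adjusted p = 0.17).

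LRIF1 encodes a nuclear protein that binds HP1 and takes part in gene silencing. Its exon of 1528 nt (chr1:111493910-111495437, minus strand) is fully coding, and 284 of its bases lie in annotated first exons. Ψ was 0.276, 0.267, and 0.245 in DMSO at 4 days, 0.587, 0.592, and 0.559 with MS023, and 0.809, 0.745, and 0.7 with co-treatment. Both lay above DMSO without overlap, with ΔΨ of 0.32 (SE 0.014, adjusted p = 3.8e-15) and 0.49 (SE 0.033, adjusted p = 3.1e-33). With GSK591 the exon rose at 7 days only among the 3 times (ΔΨ 0.20, SE 0.036, adjusted p = 3.5e-12), and the difference between times was not tested. SGOL1 encodes shugoshin, which protects the cohesion of sister centromeres, and its exon of 807 nt (chr3:20215741-20216547, minus strand) is fully coding. Annotated last exons hold 334 of the exon's bases. Ψ of SGOL1 was 0.583, 0.668, and 0.594 in DMSO at 4 days, 0.741, 0.845, and 0.842 with MS023, and 0.98, 1, and 0.962 with co-treatment, whose 3 libraries held 2 skipping reads in all. ΔΨ was 0.19 (SE 0.043, adjusted p = 0.0016) and 0.37 (SE 0.029, adjusted p = 3.8e-09). The rise of SGOL1 with MS023 at 2 days (ΔΨ 0.16, adjusted p = 0.03) was lost in 5 of the 6 fits without 1 library, with adjusted p of 0.11 to 0.19, and it was kept without DMSO library b.

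A further set of exons rose or fell with GSK591 and did not pass with MS023. HMGN1 is a nucleosome-binding protein, and its exon of 1463 nt (chr21:40717756-40719218, minus strand) is annotated in a retained-intron transcript and holds 2 annotated introns. Annotated last exons hold 146 of the exon's bases. Ψ was 0.441, 0.56, and 0.561 in DMSO at 4 days, 0.971, 0.948, and 0.911 with GSK591, and 0.532, 0.67, and 0.632 with MS023. ΔΨ with GSK591 was 0.28 (SE 0.043), 0.42 (SE 0.043), and 0.34 (SE 0.057) at 2, 4, and 7 days (adjusted p = 8.8e-05, 5.8e-10, and 7.5e-06). KDM4C removes methyl groups from lysine 9 of histone H3, and its exon of 924 nt (chr9:6981842-6982765, plus strand) is annotated in a transcript subject to nonsense-mediated decay, with 4 coding bases. Its Ψ was 0.0649, 0.107, and 0.0681 in DMSO at 4 days, 0.319, 0.371, and 0.363 with GSK591, and 0.0502, 0.0442, and 0.0504 with MS023. KDM4C rose with GSK591 by 0.18, 0.27, and 0.35 at the 3 times (adjusted p = 0.00013, 1.9e-09, and 1.2e-15). DPY19L3, an enzyme that attaches mannose to tryptophan, has an exon of 1340 nt (chr19:32958380-32959719, plus strand) that contains an annotated intron. It fell from 0.593, 0.883, and 0.849 in DMSO at 4 days to 0.201, 0.204, and 0.256 with GSK591 (ΔΨ −0.55, SE 0.093, adjusted p = 2.4e-15), while MS023 gave 0.888, 0.961, and 0.887. For HMGN1, KDM4C, and DPY19L3, GSK591 and MS023 also differed in the direct comparison at 4 days (ΔΨ of 0.33, 0.30, and −0.69, with adjusted p = 1.1e-06, 7.2e-14, and 4.7e-20).

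Genes of SR proteins and other splicing regulators hold long exons that carry early stop codons, and inclusion of such an exon is known to send the RNA to decay. SRSF3 has one of 456 nt (chr6:36567598-36568053, plus strand), and all its bases also lie in annotated first and last exons. Its Ψ was 0.019, 0.0176, and 0.0171 in DMSO at 4 days, 0.0329, 0.0352, and 0.0297 with GSK591, and 0.0463, 0.0482, and 0.0443 with co-treatment. Inclusion was low in every library but rose by 0.015 (SE 0.0017, adjusted p = 1.9e-12) and by 0.028 (SE 0.0013, adjusted p = 1.8e-36), without overlap. At 2 days with GSK591 the exon fell by −0.0036 (adjusted p = 0.034), a call that was lost without library a (ΔΨ −0.00195, adjusted p = 0.7) or without any 1 of the DMSO libraries (adjusted p = 0.062 to 0.2). With MS023 at 4 days it rose by 0.0062 (adjusted p = 0.011), which was lost without DMSO library b or c or MS023 library a or b (adjusted p = 0.062 to 0.22). SRSF7 has an exon of 449 nt (chr2:38976040-38976488, minus strand), with 15 bases in annotated first exons. Its Ψ was 0.0942, 0.118, and 0.0916 in DMSO at 4 days and 0.139, 0.164, and 0.16 with GSK591. SRSF7 rose by 0.053 (SE 0.011, adjusted p = 3.3e-14) at 4 days and by 0.066 (SE 0.0096, adjusted p = 3.2e-25) at 7 days. With MS023 at 4 days SRSF7 fell by −0.019 (adjusted p = 0.0071), with overlap of the groups, and that call was lost without DMSO library b (adjusted p = 0.59), MS023 library a (adjusted p = 0.062), or MS023 library b (adjusted p = 0.38). The exon of 312 nt in TRA2A (chr7:23561740-23562051, minus strand) rose with GSK591 at 4 days by 0.043 (adjusted p = 0.0023), which was lost without GSK591 library a (adjusted p = 0.05), and with co-treatment at 4 days by 0.058 (adjusted p = 2.3e-05). SRSF4 and TRA2B had no tested long exon.

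SNRNP70 and TIAL1 also encode RNA-binding proteins of splicing. SNRNP70 encodes the 70K protein of the U1 snRNP, which binds 5′ splice sites. Its exon of 1474 nt (chr19:49605371-49606844, plus strand) is annotated in a decay transcript and overlaps annotated first exons in 1177 of its bases. Ψ was 0.0447, 0.0461, and 0.0419 in DMSO at 4 days, 0.131, 0.138, and 0.12 with GSK591, and 0.111, 0.114, and 0.103 with MS023. At 7 days it was 0.0394, 0.0533, and 0.0643 in DMSO, 0.343, 0.309, and 0.286 with GSK591, and 0.156, 0.142, and 0.146 with MS023. The exon thus rose with both inhibitors at 4 days, by 0.086 (SE 0.0056) and 0.065 (SE 0.0035), and the groups did not overlap at 7 days either. At 7 days the rise with GSK591 was 0.26 (adjusted p = 0.0067). It was lost without DMSO library b or GSK591 library b (adjusted p = 0.053 each), and the value with MS023 did not pass (adjusted p = 0.05). In TIAL1, which encodes the RNA-binding protein TIAR, an exon of 376 nt (chr10:121339983-121340358, minus strand) fell with MS023 at all 3 times, by −0.04, −0.031, and −0.026 (adjusted p = 1.5e-07, 0.00017, and 0.00011). It rose with GSK591 at 4 days by 0.034 (adjusted p = 0.0027), which was lost without GSK591 library a (adjusted p = 0.24). Annotated first exons hold 312 of the TIAL1 exon's bases.

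**Figure D3:**
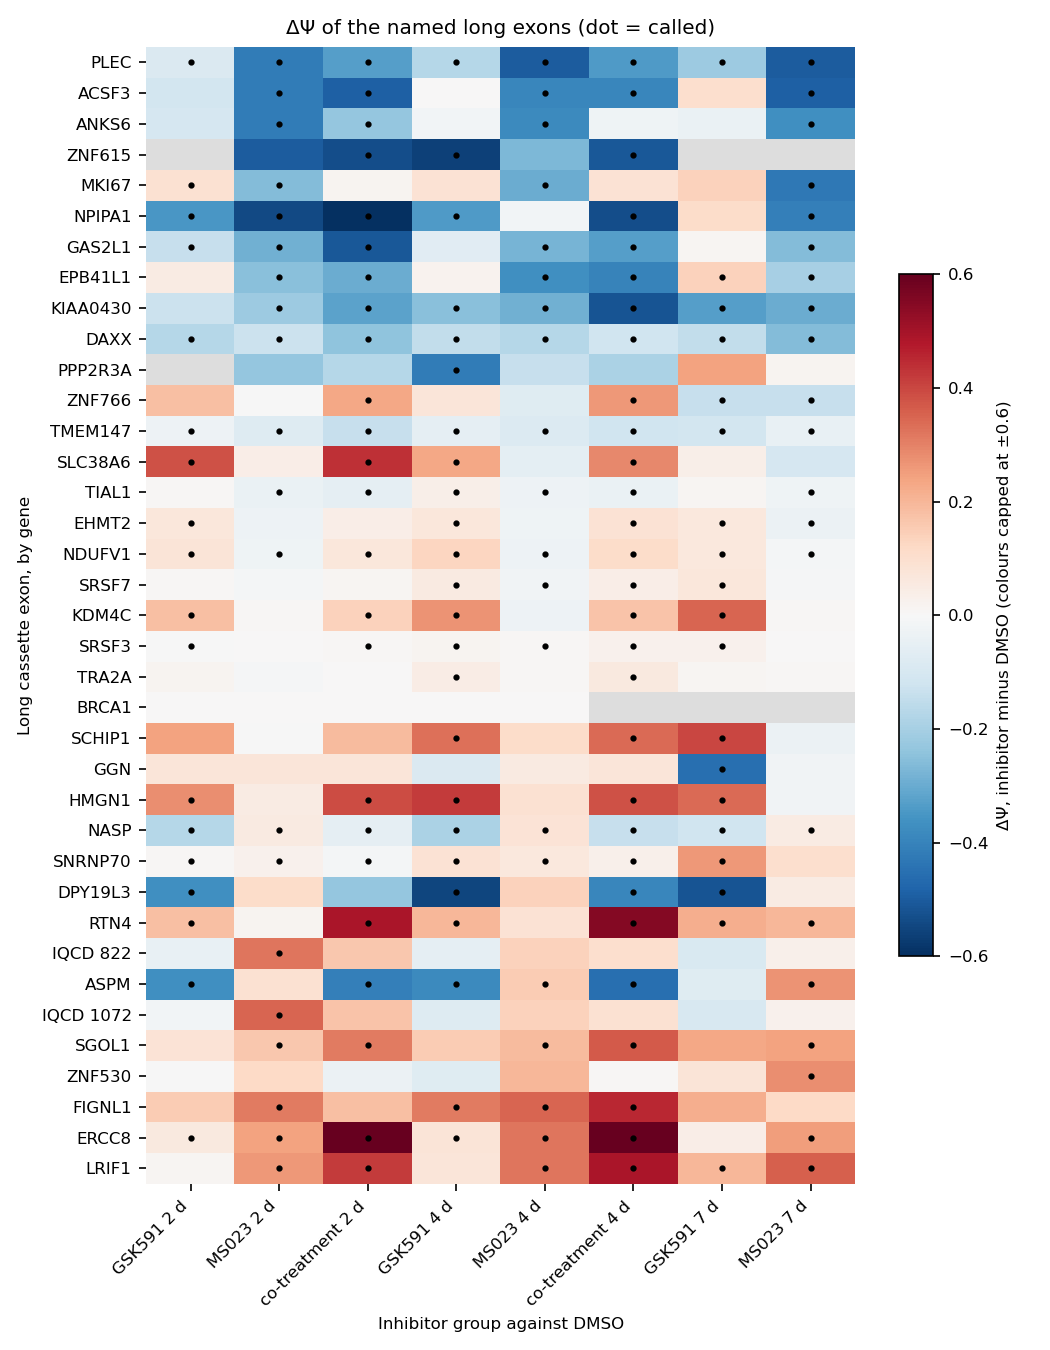
ΔΨ against DMSO (colour, red for higher and blue for lower, capped at 0.6 in size) of the 37 named long exons (rows, ordered by the mean ΔΨ with MS023) in 8 comparisons (columns). Black dots mark called exons and grey cells mark exons that were not tested, and PLEC, DAXX, and TMEM147 are blue with a dot in all 8 columns.

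By gene group, 56 genes of mitosis and cell division were listed, and 22 of them had a long exon tested with MS023 at 4 days. Their long exons gave 8 calls among 35 tested (22.9%, 3 higher and 5 lower), where 2.32% of all SE exons were called. With co-treatment at 4 days 8 of 38 were called (21.1%, 2 higher and 6 lower), against 11.5% of all SE exons. With GSK591 at 4 days 3 of 36 exons were called, all lower, which is 8.33% where 7.68% of all SE exons were called. limma called 1, 4, and 0 of these exons with MS023, co-treatment, and GSK591 at 4 days. At 2 and 7 days 12.5% and 25% were called with MS023, against 1.88% and 2.96% of all SE exons. The shares with GSK591 were 9.09% and 3.57%, against 5.05% and 5.48%. With co-treatment at 2 days 30.3% were called, against 10.1%. Among 69 genes of SR proteins and splicing regulators, 19 had a long exon tested with GSK591 at 4 days. Of their 23 tested exons, 7 (30.4%) were called, 6 higher and 1 lower, against 7.68% of all SE exons. With co-treatment at 4 days 8 of 23 (34.8%) were called, 5 higher and 3 lower, against 11.5%. With MS023 at 4 days 4 of 22 (18.2%) were called, 2 in each direction, against 2.32%. limma called 1, 1, and 0 of these exons with GSK591, co-treatment, and MS023 at 4 days. For the SR proteins and splicing regulators the shares were lower at other days. With GSK591 they were 12% at 2 days (1 higher and 2 lower) and 13% at 7 days (3 higher), against 5.05% and 5.48% of all SE exons. With MS023 they were 9.09% and 8.7%, against 1.88% and 2.96%. With co-treatment at 2 days 17.9% were called (1 higher and 4 lower), against 10.1%. Of all tested long exons, 7.8%, 12.8%, and 4.93% were called at 4 days with GSK591, co-treatment, and MS023. The group values are counts of a few exons, and no test was made of a group against other exons.

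No long exon of 66 genes of the DNA damage response was called in any of the 8 comparisons with DMSO, with 19 to 28 tested in each and 1 to 6 of them at an unadjusted p under 0.05. limma called 3 of them with co-treatment at 4 days and 0 in the other 7 comparisons. Of all SE exons, 1.88% (MS023 at 2 days) to 11.5% (co-treatment at 4 days) were called. At such shares a count of 0 among so few exons cannot show that the group is spared. The list does not hold ERCC8, whose long exon was called higher in 7 comparisons. Of BRCA1 an exon of 311 nt was kept in nearly every read, with Ψ of 1, 0.989, and 1 in DMSO at 4 days and 1 in every library of the 5 inhibitor groups in which it was tested. All bases of that exon also lie in annotated last exons, and 139 in annotated first exons. Among 76 chromatin regulators 0 of 46 exons were called with MS023 at 4 days, against 2.32% of all SE exons (4 at an unadjusted p under 0.05, and 0 with limma). With GSK591 at 4 days 2 of 41 were called (4.88%, against 7.68% of all SE exons), both higher. One of the chromatin genes is EHMT2, the histone methyltransferase G9a, whose exon of 301 nt rose with GSK591 at 4 days by 0.067 (adjusted p = 0.00041), a call lost without DMSO library c (adjusted p = 0.054). Of 54 genes of the cytoskeleton and large scaffolds, 2 of 32 exons (6.25%) were called with MS023 at 4 days, both lower, and among 108 zinc finger genes 2 of 106 (1.89%), both lower, against 2.32% of all SE exons. With co-treatment at 4 days 5 of 33 exons (15.2%) of the cytoskeleton genes were called, 2 higher and 3 lower, against 11.5% of all SE exons.

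Most called exons had the same direction at 4 and 7 days, where the comparisons share no library. Of the 85 exons that rose with GSK591 at 4 days and were tested at 7 days, 80 had a ΔΨ above 0 at 7 days, and 45 were called higher and 0 lower. Of the 127 that fell, 107 had a ΔΨ below 0 at 7 days, 51 were called lower, and 3 were called higher. With MS023, 41 of 41 risers and 94 of 97 fallers kept their direction at 7 days. Of these exons 25 and 59 were called again, and 0 were called in the opposite direction. The same counts were not made for all SE exons, so they do not show a trait particular to long exons.

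The direct comparison of GSK591 with MS023, which uses no DMSO library, gave more calls among long exons than the comparisons of either with DMSO. At 2 days 246 of 2363 long exons (10.4%) were called, 150 higher and 96 lower with GSK591, where 8.39% of all SE exons were called, 2.87% higher and 5.51% lower. Without library a of GSK591, 215 were called, 138 higher and 77 lower, against 6.89% of all SE exons. At 4 days 353 of 2413 (14.6%) were called, 209 higher and 144 lower, against 11.8% of all SE exons, 4.03% higher and 7.75% lower. At 7 days 302 of 2248 (13.4%) were called, 192 higher and 110 lower, against 9.61% of all SE exons, 4.1% higher and 5.52% lower. Thus 61%, 59.2%, and 63.6% of called long exons had the higher Ψ with GSK591, and 32.5%, 32.6%, and 41% of called shorter exons. The difference in Ψ was over 0.1 in 124, 186, and 161 of the called long exons, and this was not counted over all SE exons. With limma, 22, 171, and 157 long exons were called.

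**Figure D4:**
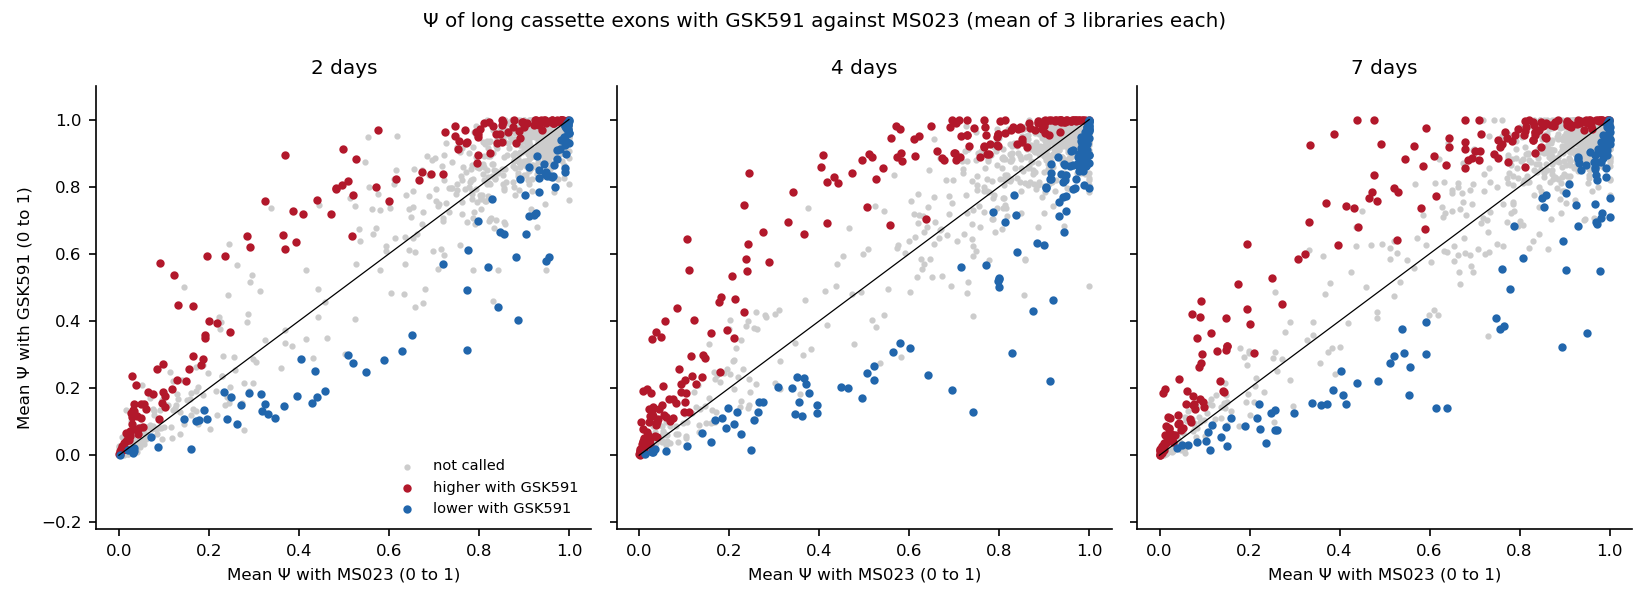
Mean Ψ of 3 libraries with GSK591 (y axis) against MS023 (x axis) for each tested long exon at 2, 4, and 7 days, with the diagonal as a black line. Red points are called higher with GSK591 (150, 209, and 192 exons) and blue points lower (96, 144, and 110 exons).

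Co-treatment was also set against GSK591 alone. At 2 days 123 of 2385 long exons (5.16%) were called, 60 higher and 63 lower with co-treatment, against 3.34% of all SE exons, 0.932% higher and 2.4% lower. Without library a of GSK591, 94 were called, 41 higher and 53 lower, against 2.48% of all SE exons. At 4 days 149 of 2459 (6.06%) were called, 75 higher and 74 lower, against 4.29% of all SE exons, 2.09% higher and 2.19% lower. EPB41L1 and ACSF3 were among those that were lower with co-treatment (ΔΨ of −0.42 and −0.39 at 4 days, adjusted p = 8.2e-81 and 3.6e-09), and ERCC8 and LRIF1 among those that were higher (0.60 and 0.42, adjusted p = 9.4e-41 and 7.9e-21). limma called 0 long exons in either comparison (324 and 401 at an unadjusted p under 0.05).

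Long exons that rose and long exons that fell differed in base composition and in their surroundings, which are described here without a test. With GSK591 at 4 days the median GC content was 49.5% in the 89 exons that rose and 57.9% in the 130 that fell, against 53% in 1048 exons that were not called and had at least 10 skipping reads. With MS023 at 4 days it was 48% in the 42 that rose, 56.1% in the 98 that fell, and 53% in 1160 not called. Shorter exons showed the same order with GSK591 at 4 days, with 50.5%, 53.7%, and 49.7%, except that those not called had the lowest value.

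Short flanking introns were frequent among exons that fell with GSK591. Both introns were under 1000 nt for 43.1% of the long exons that fell with GSK591 at 4 days, for 14.6% of those that rose, and for 14.7% of those not called. At 7 days these shares were 46.2%, 12.4%, and 14.7%. With MS023 at 4 days they were 15.3%, 14.3%, and 15.1%. Shorter exons showed the same trait with GSK591, with 37.6% of those that fell and 16.7% of those not called at 4 days, and 48.6% and 16.7% at 7 days. The median upstream and downstream introns of long exons that fell at 4 days were 887 and 657 nt with GSK591 and 1939 and 1408 nt with MS023. For those not called with at least 10 skipping reads they were 2274 and 2295 nt, and 2362 and 2402 nt. An annotated intron lay inside 32.3% of the long exons that fell with GSK591 at 4 days, and inside 12.2% of those that fell with MS023. The shares were 17.4% and 17.6% of those not called with at least 10 skipping reads, and 21.8% and 20.7% of all tested long exons.

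Before the AG of the 3′ splice site, pyrimidines made up 71.1% of 17 bases in long exons that fell with MS023 at 4 days, 74.4% in those that rose, and 75.8% in those not called. With GSK591 the shares were 75.2%, 74%, and 75.5%. Shorter exons gave 71.7%, 73.4%, and 73.7% with MS023 at 4 days. Long exons that rose with MS023 at 4 days were longer (median 718 nt) than those that fell (506 nt) or were not called (461 nt). Of those that rose 52.4% were fully coding, against 39.6% of those not called. Of those that rose with GSK591 at 4 days 19.1% were fully coding and 25.8% held no coding base, against 43.1% and 15.3% of those not called. A length divisible by 3 was seen in 52.4% and 46.9% of the exons that rose and fell with MS023 at 4 days, and in 37% of those not called. Among shorter exons these shares were 49.7%, 49.9%, and 42.6%.

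**Figure D5:**
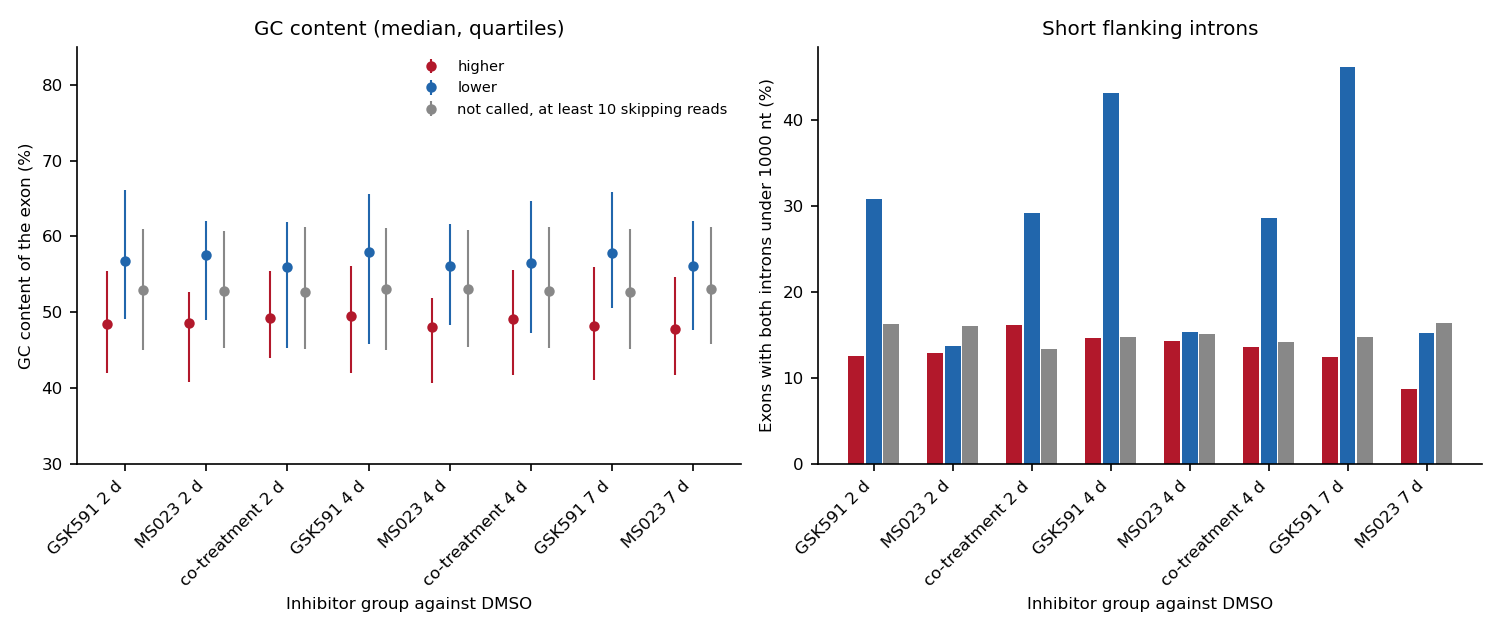
Left, GC content (%, median and quartiles) of long exons called higher, called lower, or not called with at least 10 skipping reads, in 8 comparisons with DMSO. Right, the share of these exons (%) whose flanking introns are both under 1000 nt, which reached 43.1% and 46.2% for exons that fell with GSK591 at 4 and 7 days.

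Some large values rest on few reads or on reads that may belong to copies of a gene. The exon of 1007 nt in NPIPA1 (chr16:15042787-15043793, plus strand) had the largest fall with MS023 at 2 days and with co-treatment at 2 days among exons that met the read limits, but NPIPA1 belongs to a family of near-identical copies. Its Ψ with GSK591 at 4 days was 1, 0.122, and 0.125 in libraries a, b, and c, and with MS023 at 4 days 0.294, 1, and 0.931, so that libraries of 1 group disagreed. Its call with co-treatment at 4 days was lost without DMSO library b (adjusted p = 0.096) or co-treatment library b (adjusted p = 0.076). Its call with MS023 at 7 days was lost without DMSO library a (adjusted p = 0.051), DMSO library c (adjusted p = 0.05), or MS023 library a (adjusted p = 0.078), and its values are uncertain. FIGNL1, an ATPase of DNA recombination, has a non-coding exon of 606 nt (chr7:50516816-50517421, minus strand) that rose with MS023 at 4 days by 0.35 (adjusted p = 4.6e-05), with 4 to 9 skipping reads per MS023 library. All bases of the FIGNL1 exon also lie in annotated first exons. Its rise at 2 days (ΔΨ 0.31, adjusted p = 0.0012) was lost without MS023 library a (adjusted p = 0.052). SCHIP1 and SLC38A6 rose with GSK591 at 4 days by 0.33 and 0.23 (adjusted p = 0.036 and 0.039), and each of these calls was lost in 5 of the 6 fits without 1 library (adjusted p of 0.056 to 0.23 and of 0.072 to 0.22). The call of SCHIP1 was kept without GSK591 library a and that of SLC38A6 without DMSO library b. Both exons also overlap annotated last exons, in 582 and 282 bases, and that of SCHIP1 overlaps first exons in 152. IQCD has overlapping exons of 822 and 1072 nt that share most reads and rose with MS023 at 2 days. Both calls were lost without DMSO library b (adjusted p = 0.2 each) or MS023 library a (adjusted p = 0.077 and 0.058).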

How the data were processed

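Per the paper's methods and the labels, the authors trimmed reads with Trim Galore 0.6.5, aligned them to hg19 with STAR 2.4.2a, and ran rMATS, whose release the sources give differently. The authors deposited, for each event, inclusion and skipping counts as whole numbers, effective lengths, and Ψ as a fraction, all joined by commas over the libraries of a group, with the p-values, FDR, and Ψ differences of their own comparisons, which were not used. A planned count model was not run.

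Long exons were SE exons over 300 nt, and 1 event stood for each exon: that tested in the most comparisons, then with the most reads. A quasi-binomial logistic model was fitted to both counts of each event with at least 10 reads in every library. Its dispersion was moderated with squeezeVar of limma 3.58.1 (R 4.3.3, robust, prior from events with at least 10 reads of each kind, a choice made after the data were opened) and held at 1 or above. The prior had infinite weight for all but 18 to 776 events per comparison. Those other events were thus given 1 common dispersion, which was 1.78 to 2.4 over the comparisons. F tests were adjusted by Benjamini-Hochberg over all SE events fitted.

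Named exons were the 2 largest called rises and falls of each comparison with at least 50 reads in every library and 10 skipping reads, the 5 called most often, up to 2 of each gene list, and those of 7 fixed genes. The exons, lists, and tests were chosen with earlier results of these data known. Groups came from the labels. SKaTER-seq and actinomycin D samples were not analysed here. Splice sites are shown for 15 of the 37 named exons, and those of 2 others are not reported here.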

Additional observations from a re-analysis of the deposited data

Results flagged for a closer look

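In 12 pairs of days, all 3 libraries of a treatment lay on one side of their DMSO mean at one time and all 3 on the other side at another time. The differences between times were not tested. The exon of GAS2L1 had a ΔΨ with GSK591 of 0.0124 at 7 days, against −0.135 at 2 days and −0.0699 at 4 days, and it was called at 2 days alone. The exon of PPP2R3A, a regulatory subunit of the phosphatase PP2A, had 0.242 at 7 days, which was not called, against −0.418 at 4 days with GSK591. That fall (adjusted p = 0.0031) was lost without GSK591 library c (adjusted p = 0.066).

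The exon of SRSF3 had ΔΨ of 0.0147 at 4 days and 0.025 at 7 days with GSK591, against −0.00364 at 2 days. The exon of SNRNP70 had, with co-treatment, 0.0313 at 4 days against −0.0123 at 2 days, both called. The zinc finger gene ZNF766 had −0.144 at 7 days with GSK591, against 0.175 at 2 days and 0.071 at 4 days, neither of which was called. The value at 7 days (adjusted p = 0.0051) was lost without DMSO library a (adjusted p = 0.059) or GSK591 library b (adjusted p = 0.2).

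The exon of GGN, a gene of the germ line, had −0.451 at 7 days and 0.0725 at 2 days with GSK591. The call at 7 days (adjusted p = 0.021) was lost in 5 of the 6 fits without 1 library and kept without GSK591 library c. With MS023, the exon of HMGN1 had −0.0186 at 7 days, against 0.0499 and 0.0906 at 2 and 4 days, and that of KDM4C had 0.00474 at 7 days and −0.0316 at 4 days, none of them called.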

How the results depend on the processing

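No call of a named exon changed direction under any alternative, and the median ΔΨ of long exons with GSK591 at 7 days (9.06e-05) changed sign without DMSO library a (−9.22e-05) or b (−3.91e-05). In the order GSK591, MS023, and co-treatment at 2 days, the same at 4 days, and GSK591 and MS023 at 7 days, limma on the log2 odds of inclusion called 0, 1, 120, 30, 2, 145, 5, and 0 long exons, against 134, 126, 306, 219, 140, 365, 167, and 145. For GSK591 against MS023 it called 22, 171, and 157, and for co-treatment against GSK591 0 and 0. limma on events with at least 10 skipping reads, chosen after the data were seen, called 12, 1, 169, 72, 4, 219, 36, and 12. Without exons that overlap first or last exons, which leaves fewer exons to test, 50, 47, 123, 84, 51, 157, 67, and 52 were called. Without 1 library each, which leaves fewer samples, the counts ranged over 97 to 109, 84 to 102, 242 to 261, 168 to 180, 98 to 119, 290 to 304, 134 to 143, and 112 to 121, and for GSK591 against MS023 over 189 to 216, 285 to 300, and 225 to 248. Other causes were not tested.

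The median ΔΨ of long exons moved with raw counts, not divided by length, to −0.000153, −0.000548, −0.000375, −0.000181, −0.000469, and −0.000248 at 2 and 4 days and −0.000354 with MS023 at 7 days. Without exons that overlap first or last exons it moved to −1.71e-05, −0.00179, and −0.00116 at 2 days, −0.000392 with GSK591 and −0.000594 with co-treatment at 4 days, and 0.000996 and −0.00127 at 7 days. A minimum of 20 reads gave −0.00103 with GSK591 at 4 days, and every event of each exon gave −0.00112 and −0.00145 with GSK591 and co-treatment at 4 days. Without 1 library the medians ranged from −0.000882 to 0, −0.00269 to −0.000677, −0.00222 to −0.000174, −0.00108 to 0, −0.00247 to −0.000677, −0.00148 to 0, −9.22e-05 to 0.000629, and −0.00177 to −7.7e-05.

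Of 175 calls of named exons, 136 were kept in every fit without 1 library and 39 were lost in some. limma kept 25 of them, and 47 where events had at least 10 skipping reads. No paired analysis was possible because the columns carry no replicate numbers. The planned count model across all events was not run. Exons with few skipping reads limit what can be called, and intervals cover the spread of 3 libraries.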
